A study of Glycine max with 12 samples.

Results

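In closed soybean flowers, 2 vegetative storage protein transcripts and 2 lipoxygenase transcripts were among the most abundant messages, and all 4 had their highest mean when water deficit and heat were applied together. The analysis covers 8 rows of the gene count table, of 55897 rows in all. They are the vegetative storage protein rows GLYMA_07G014500 and GLYMA_08G200100, the lipoxygenase rows GLYMA_15G026300, GLYMA_15G026400 and GLYMA_15G026500 on chromosome 15, GLYMA_13G347500 and GLYMA_13G347600 on chromosome 13, and GLYMA_04G105900 on chromosome 4. The rows were chosen as members of these families with their level and their share of the library across treatments already known. Their own levels and differences are therefore a description and are given without a test. The tables hold gene IDs without products. GLYMA_04G105900 is described as lipoxygenase 1 in the study's lists, and the family names of the other 7 rows are those under which they were chosen, not checked here against an annotation.

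Whole closed flowers of *Glycine max* cv Magellan were sequenced after plants had spent 10 d in growth chambers under water deficit together with heat stress (WD+HS), heat stress (HS), water deficit (WD) or control conditions (CT). Day temperature was 38°C under HS and WD+HS and 28°C under WD and CT, and plants under WD and WD+HS were given 30% of the water available to transpire, set by pot weight. Each treatment had 3 libraries, each from a pool of flowers taken from several plants. Each treatment was held in its own chamber, so that an effect of the chamber and an effect of the treatment cannot be told apart. In RNA from whole flowers, fewer cells of a type and less RNA per cell cannot be told apart either, and organ markers were not analysed here. Totals were 14049107 to 22415845 counted reads per library. Levels are given as CPM, counts scaled to the size of the library, after TMM scaling, whose factors were 0.979 to 1.03. CPM compares libraries for a given gene, and the authors' FPKM, which is also scaled to transcript length, compares genes.

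Vegetative storage proteins are vacuolar glycoproteins, related to acid phosphatases, in which soybean stores nitrogen in leaves, stems and pods. They are made when sinks are removed or nitrogen is plentiful and are withdrawn when seeds fill, and their genes are classical targets of the hormone jasmonate. Lipoxygenases add oxygen to linoleic and linolenic acid. The hydroperoxides made by plastid lipoxygenases are the starting point of jasmonate synthesis, while abundant lipoxygenases of soybean leaves and seeds also accumulate as protein stores. The study measured less jasmonate and less of its isoleucine conjugate in HS and WD+HS flowers than in CT or WD flowers. How these hormone levels relate to the transcripts was not tested here.

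Together the 8 rows took 2.25%, 2.15% and 2.24% of all counted reads in the WD+HS libraries. The share was 1.30%, 1.66% and 1.52% under HS, 1.76%, 1.33% and 1.37% under WD, and 1.21%, 1.27% and 1.41% under CT. The lowest WD+HS library was thus above each library of the other treatments. The 2 vegetative storage protein rows made up 1.12%, 1.08% and 1.17% under WD+HS, 0.469%, 0.704% and 0.651% under HS, 0.921%, 0.635% and 0.720% under WD, and 0.623%, 0.673% and 0.727% under CT. For this pair HS, WD and CT overlapped, and WD+HS stood above all of them. The 6 lipoxygenase rows made up 1.13%, 1.07% and 1.08% under WD+HS, 0.830%, 0.961% and 0.873% under HS, 0.841%, 0.698% and 0.653% under WD, and 0.588%, 0.595% and 0.679% under CT. Their share was higher under HS than under CT in all libraries, a difference that lay mainly in GLYMA_15G026500. Nearly all of these reads came from 4 rows, and for each of these rows the Wilson 95% interval of its share in a library spanned at most 1.65% of the share to either side. These intervals cover counting error only.

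GLYMA_07G014500 was the most abundant of the 8 rows per transcript length in every treatment, and ranked between 1 and 5 among all genes by reads in every library. It had 8144.0, 7747.5 and 8086.6 CPM in WD+HS flowers, 3322.7, 4874.4 and 4357.4 CPM in HS flowers, 7496.5, 5442.1 and 5640.3 CPM in WD flowers, and 5016.6, 5520.6 and 5837.7 CPM in CT flowers. In CPM, all HS libraries lay below all CT libraries, all WD+HS libraries lay above all others, and WD overlapped CT. Such separations were common, and 22.6% of all genes tested had every HS library below every CT library. Every WD+HS library was above every CT library for 24.0% of genes, above every HS library for 12.9% and above every WD library for 20.3%. By FPKM the separations of GLYMA_07G014500 did not hold. HS replicate 2 (6419.0) was above CT replicates 1 and 2 (6054.8 and 6256.6), and WD replicate 1 (9737.5) was above WD+HS replicate 3 (9422.4). The log2 fold change was 0.55 for WD+HS against CT (standard error 0.11), -0.38 for HS against CT (0.11) and 0.18 for WD against CT (0.11). Against HS flowers, WD+HS flowers were higher by 0.93 (0.11). Heat alone thus went with a lower level of this transcript, and heat combined with water deficit with a higher one. Leaving out HS replicate 1, the lowest HS library, gave -0.24 for HS against CT, and leaving out WD replicate 1 gave 0.01 for WD against CT. The interaction, which is the effect of WD at 38°C minus the effect of WD at 28°C, was 0.75 on the log2 scale (0.16). With both limma fits on FPKM, 0 of the 8 rows were called above 0 for the interaction.

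GLYMA_08G200100, the other vegetative storage protein row, had a higher mean than CT under both heat treatments. It had 3220.8, 3133.7 and 3622.9 CPM in WD+HS flowers, 1333.4, 2039.3 and 1984.5 CPM in HS flowers, 1732.0, 1044.9 and 1591.3 CPM in WD flowers, and 1207.4, 1307.3 and 1329.5 CPM in CT flowers. The WD+HS libraries again lay above all others, the lowest HS library was just above the highest CT library, and WD spread over both sides of CT. Every HS library was above every CT library for 23.3% of all genes tested. For GLYMA_08G200100 the separation of HS from CT held only after TMM scaling. HS replicate 1 was below CT replicate 3 by share of the library (0.134% and 0.135%) and by FPKM (1486.6 and 1526.6). The log2 fold change was 1.38 for WD+HS against CT (standard error 0.15), 0.48 for HS against CT (0.14) and 0.18 for WD against CT (0.14). It was 0.90 for WD+HS against HS (0.14), close to the 0.93 of GLYMA_07G014500, and the interaction was 0.71 (0.20). Without WD replicate 1 the value for WD against CT was 0.03, and without WD replicate 2 it was 0.38. In CPM the 2 rows therefore differed in the direction of their difference under HS and had like values for water deficit added to heat. GLYMA_07G014500 was called lower under HS in the edgeR fit of all genes, but its level led to its choice, so nothing is read from this call. With DESeq2 and with both limma fits on FPKM, 0 of the 8 rows were called lower in HS against CT. DESeq2 also called only 1 of them higher, where edgeR called 2.

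**Figure D1:**
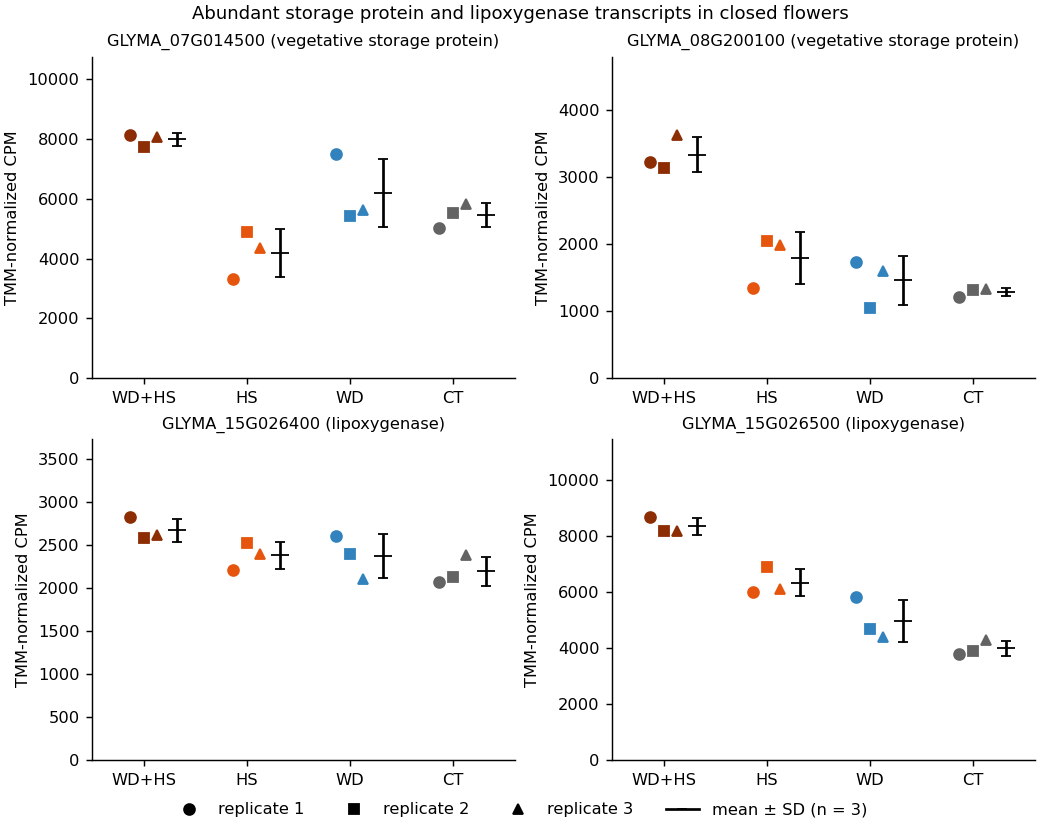
CPM in each library (y axis, counts scaled to library size by TMM, from 0) of the 4 abundant rows by treatment (x axis); symbols are replicates, and bars are the mean ± SD of 3 libraries. The WD+HS libraries lie above those of all other treatments for GLYMA_07G014500, GLYMA_08G200100 and GLYMA_15G026500, whereas those of GLYMA_15G026400 overlap WD. Of all genes tested, 24.0% had every WD+HS library above every CT library, 12.9% above every HS library and 20.3% above every WD library.

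The ratio of the storage protein rows within a library does not depend on library scaling. Reads of GLYMA_07G014500 over reads of GLYMA_08G200100 were 2.53, 2.47 and 2.23 under WD+HS, 2.49, 2.39 and 2.2 under HS, 4.33, 5.21 and 3.54 under WD, and 4.15, 4.22 and 4.39 under CT. All 6 libraries at 38°C lay below all 6 libraries at 28°C, and WD+HS, with a mean of 2.41 ± 0.157, overlapped HS, with 2.36 ± 0.15 (SD, n = 3 each). The FPKM ratio averaged 2.81 under WD+HS, 2.79 under HS, 5.05 under WD and 4.99 under CT. The balance between the rows thus went with temperature on both scales. How reads that fit more than 1 gene were counted is not given in the sources used here, so the split of reads between such related rows is uncertain.

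The chromosome 15 lipoxygenase row GLYMA_15G026500 had a graded order of treatments. It had 8692.2, 8180.3 and 8196.9 CPM in WD+HS flowers, 6026.9, 6902.5 and 6106.8 CPM in HS flowers, 5815.6, 4695.6 and 4420.1 CPM in WD flowers, and 3789.1, 3898.7 and 4312.1 CPM in CT flowers. In CPM no treatment overlapped the next one in this order. Of all genes tested, 8.44% had every WD library above every CT library, and 12.9% had every WD+HS library above every HS library. By FPKM WD and CT overlapped, with WD replicate 3 (1451.6) below CT replicate 3 (1476.8). The log2 fold change was 1.06 for WD+HS against CT, 0.67 for HS against CT and 0.32 for WD against CT, each with a standard error of 0.08. The interaction was 0.08 (0.12). Leaving out 1 library gave 0.18 to 0.39 for WD against CT, with 0.18 without WD replicate 1, and 0.00 to 0.22 for the interaction, with 0.22 without that library. By reads this row ranked 1 or 2 among all genes in every library at 38°C.

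Its neighbour GLYMA_15G026400 was nearly level across treatments. It had 2826.7, 2577.9 and 2616.0 CPM in WD+HS flowers, 2211.1, 2529.2 and 2400.8 CPM in HS flowers, 2609.9, 2398.3 and 2104.7 CPM in WD flowers, and 2074.5, 2125.5 and 2380.1 CPM in CT flowers. Its log2 fold change was 0.29 for WD+HS against CT, 0.12 for HS against CT and 0.11 for WD against CT (standard error 0.08 each), and HS, WD and CT overlapped. Reads of GLYMA_15G026500 over reads of GLYMA_15G026400 were accordingly 3.08, 3.17 and 3.13 under WD+HS, 2.73, 2.73 and 2.54 under HS, 2.23, 1.96 and 2.1 under WD, and 1.83, 1.83 and 1.81 under CT. This ratio separated all 4 treatments, and by FPKM it averaged 2.99 under WD+HS, 2.58 under HS, 2.05 under WD and 1.77 under CT. The same caution about related rows applies to it.

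**Figure D2:**
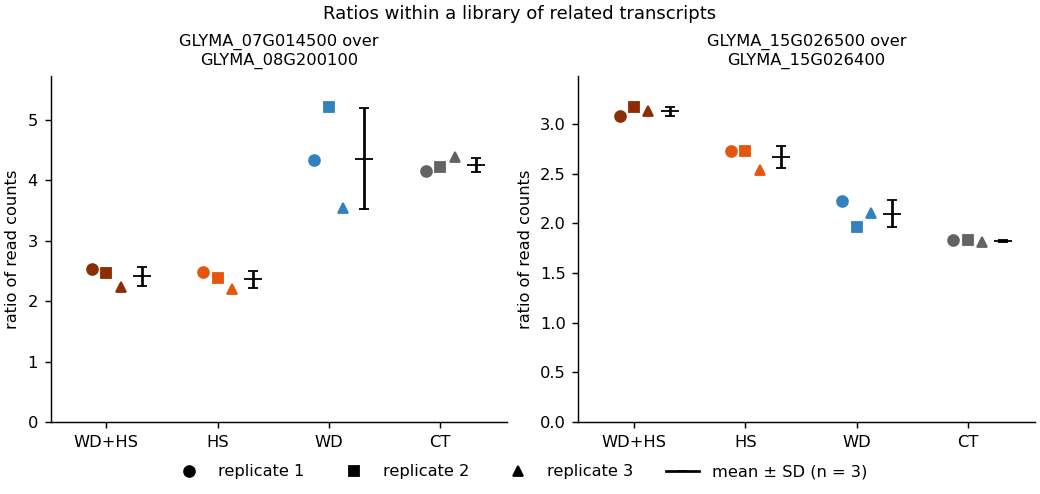
Ratio of read counts within each library (y axis, from 0) for the 2 vegetative storage protein rows (left) and for 2 adjacent chromosome 15 lipoxygenase rows (right), by treatment; symbols are replicates, bars are the mean ± SD of 3 libraries. The left ratio averages 2.41 in WD+HS, 2.36 in HS, 4.36 in WD and 4.26 in CT flowers, whereas the right ratio averages 3.13 in WD+HS, 2.67 in HS, 2.1 in WD and 1.82 in CT flowers.

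The remaining chromosome 15 row, GLYMA_15G026300, was far less abundant. It had 76, 44 and 72 reads in WD+HS flowers, 51, 65 and 52 in HS flowers, 27, 64 and 21 in WD flowers, and 41, 47 and 30 in CT flowers. Mean levels were 4.07 ± 0.857 CPM under WD+HS, 2.93 ± 0.407 under HS, 2.29 ± 1.1 under WD and 2.2 ± 0.432 under CT (SD, n = 3 each). The WD+HS libraries lay above CT, by 0.89 on the log2 scale (standard error 0.33), and overlapped HS and WD. Every WD+HS library was above every CT library for 24.0% of all genes tested. Counting error is a large part of the spread at this depth.

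The chromosome 13 rows were almost without reads in these flowers. GLYMA_13G347500 had 2, 0 and 1 reads under WD+HS, 4, 0 and 2 under HS, 1 each under WD, and 2, 6 and 0 under CT. GLYMA_13G347600 had 4 reads in WD replicate 1, 6 reads in CT replicate 2, and 0 in the other 10 libraries. A count of 0 allows up to 3 reads, which is 0.134 to 0.214 CPM in libraries of these sizes. Both rows failed the filter on low counts, and no difference between treatments was detectable at this depth.

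The chromosome 4 row GLYMA_04G105900 was the single row of the 8 that stood apart under WD alone. It had 1, 17 and 15 reads in WD+HS flowers, 8, 18 and 10 in HS flowers, 49, 473 and 385 in WD flowers, and 5, 12 and 9 in CT flowers. All WD libraries lay above all others, where 8.44% of all genes tested had every WD library above every CT library. WD replicate 1, at 3.50 CPM, was however far below WD replicates 2 and 3, at 26.0 and 25.9 CPM. The same library, WD replicate 1, was the highest of the WD libraries for each of the 4 abundant rows. The log2 fold change was 5.25 for WD against CT (standard error 0.63) and -4.69 for WD+HS against WD (0.61). For WD+HS against CT it was 0.56 (0.84), and for HS against CT 0.38 (0.82), with overlapping libraries in both. The interaction was -5.07 (1.05), the opposite sign to that of the storage protein rows. Leaving out 1 library gave 4.92 to 5.73 for WD against CT, with 5.73 without WD replicate 1.

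**Figure D3:**
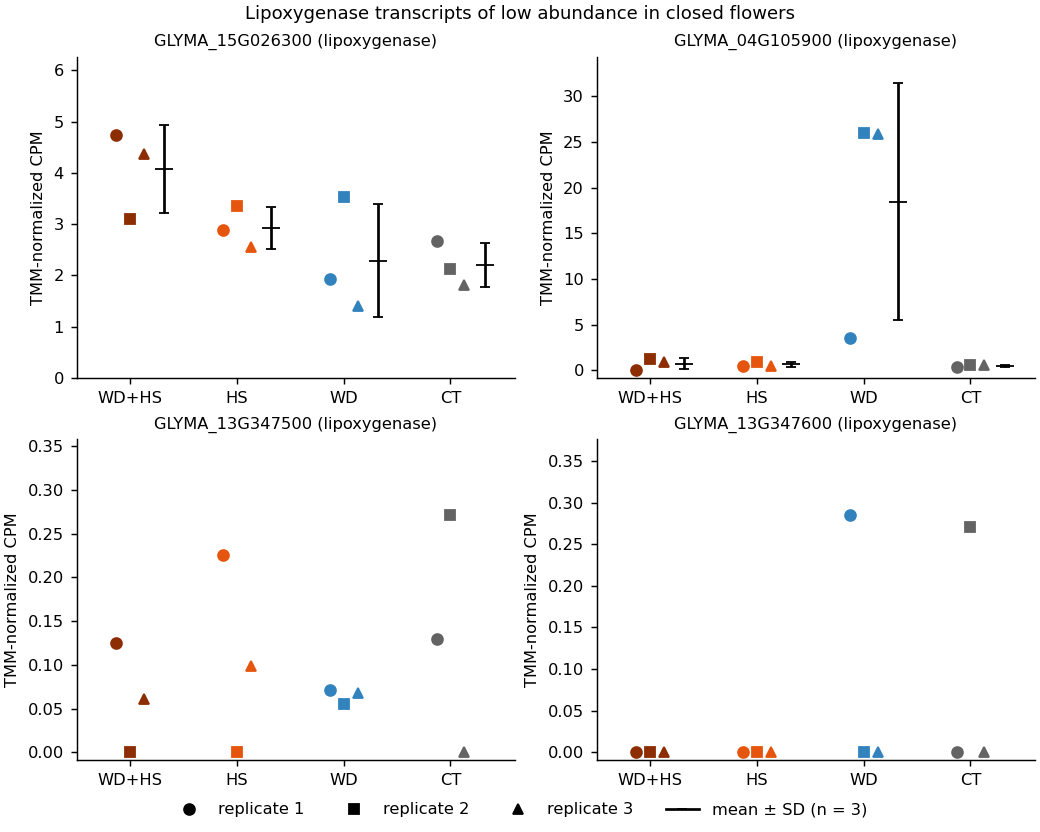
CPM in each library (y axis, counts scaled to library size by TMM) of the 4 lipoxygenase rows of low abundance by treatment (x axis); symbols are replicates, and bars are the mean ± SD of 3 libraries, drawn only for rows read in all 12 libraries. GLYMA_04G105900 stands out under WD with 3.50, 26.0 and 25.9 CPM, and the chromosome 13 rows have at most 6 reads in any library.

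The gene models behind these rows appeared to differ in length. CPM of the unscaled counts over FPKM is a rough measure of the length used, in kilobases, and its median was 2.85 to 2.96 for the 3 chromosome 15 rows. For GLYMA_04G105900 it was 0.421, from 3 libraries with at least 20 reads, and it was 0.775 for GLYMA_07G014500 and 0.909 for GLYMA_08G200100. By this measure the chromosome 4 row is a shorter model than the chromosome 15 rows. The measure holds only if the counts and the FPKM rest on the same reads, which is not known here. By FPKM, the order in WD+HS flowers was GLYMA_07G014500 (9937.6), GLYMA_08G200100 (3545.5), GLYMA_15G026500 (2713.9) and GLYMA_15G026400 (908), and no libraries of neighbouring rows overlapped. In HS, WD and CT flowers GLYMA_08G200100 and GLYMA_15G026500 overlapped in FPKM, and the other neighbours among these 4 rows did not. GLYMA_04G105900 was the fifth in each treatment, with a mean of 1.66 FPKM under WD+HS, 1.63 under HS, 39.9 under WD and 1.27 under CT.

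**Figure D4:**
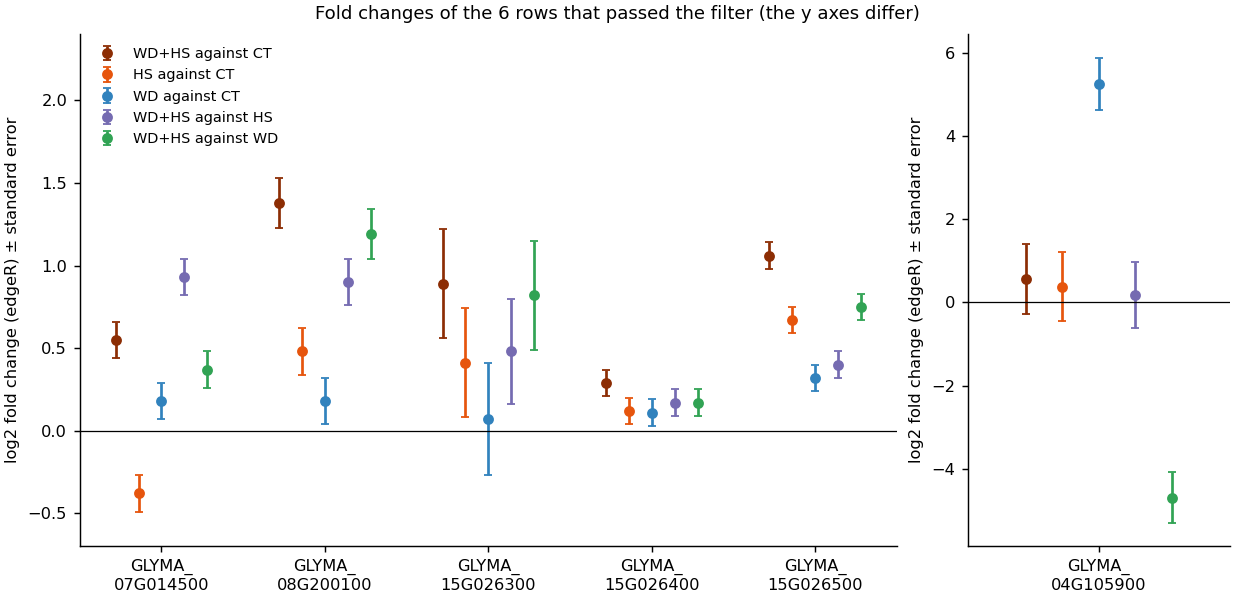
Log2 fold change (y axis, edgeR, error bars are the standard error) of the 6 rows that passed the filter on low counts (x axis), in 5 comparisons shown by colour; the y axis of the right panel, for GLYMA_04G105900, has another scale. GLYMA_07G014500 is the only one of these rows below 0 for HS against CT (-0.38), and GLYMA_04G105900 the only one above 1 for WD against CT (5.25).

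In the fit of all genes, where a gene was called at an adjusted p-value under 0.05, 5 of the 6 rows that passed the filter were called higher in WD+HS against CT, beside 17.7% of all genes tested. In HS against CT, 2 rows were called higher, beside 15.9%, and 1 lower, beside 16.0%. In WD against CT, 1 row was called higher, beside 0.937%. Of the rows, 3 were called higher in WD+HS against HS, beside 3.21%, and 3 in WD+HS against WD, beside 13.7%, where 1 was also called lower, beside 16.4%. For the interaction, 1 row was called above 0, beside 0.497%, and 1 below, beside 2.45%. Because the levels of these rows led to their choice, nothing is read from these counts or from the medians that follow. The median log2 fold change of the 6 rows was 0.73 for WD+HS against CT, 0.40 for HS against CT and 0.18 for WD against CT, while that of all 38410 genes tested was between 0.00 and 0.01.

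Another 5 lipoxygenase genes are described in the study's lists of changed genes, which were made from these libraries, so their direction is not independent evidence. All 5 were called higher in WD+HS against CT, with log2 fold changes of 1.07 to 1.49, beside 17.7% of all genes tested, and in HS against CT, with 0.49 to 1.08, beside 15.9%. In WD against CT, 3 of 5 were called higher, beside 0.937%. GLYMA_07G039900, described as lipoxygenase 3, averaged 135 ± 6.77 CPM under WD+HS, 111 ± 3.90 under HS, 85.1 ± 5.08 under WD and 62.4 ± 4.09 under CT (SD, n = 3 each). GLYMA_12G054700, described as lipoxygenase 2, averaged 51.5 ± 2.35 CPM under WD+HS, 38.6 ± 3.86 under HS, 18.5 ± 2.30 under WD and 18.4 ± 2.21 under CT. For WD against CT the log2 fold change was 0.45 for GLYMA_07G039900 (standard error 0.08, adjusted p = 0.00394 in edgeR) and 0.01 for GLYMA_12G054700 (0.12, adjusted p = 0.984). GLYMA_16G008700 (94 CPM under WD+HS and 38.3 under CT), GLYMA_07G196800 (31.6 under WD+HS and 15 under CT) and GLYMA_13G030300 (11.9 under WD+HS and 5.16 under CT) completed the set. Against HS, 4 of 5 were called higher under WD+HS, beside 3.21%, and none of these 4 calls held with the limma fits on FPKM. By edgeR, 0 had an interaction past the threshold, beside 0.497% above 0 and 2.45% below 0, where 2 of 5 had an unadjusted p-value under 0.05, or by DESeq2, where 1 had. The WD against CT calls of GLYMA_07G196800 and GLYMA_13G030300 were lost without any one of CT replicates 1, 2 and 3 or WD replicate 1, which left 1 of 5. The HS against CT call of GLYMA_13G030300 was lost without any one HS or CT library. The count for WD+HS against HS was 2 of 5 without HS replicate 1, WD+HS replicate 1 or WD+HS replicate 2. These levels are far below those of GLYMA_15G026400 and GLYMA_15G026500.

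Rows within 5 places of the 8 rows in gene ID order, which follows position along the chromosome, were examined next, since they were not chosen by their values. Of 50 such rows, 33 were tested, and 10 had no read in any library. In HS against CT, 5 were called higher, beside 15.9% of all genes tested, and 12 lower, beside 16.0%. In WD+HS against CT, 7 were called higher, beside 17.7%, and 9 lower, beside 19.1%. Between WD+HS and HS, 4 of 33 were called higher and 0 lower by edgeR, beside 3.21% and 5.94% of all genes, and 1 was lower at an unadjusted p-value under 0.05 by edgeR and by DESeq2. In WD against CT 2 were called higher, beside 0.937%, and this count was between 0 and 3 when 1 library was left out. An interaction above 0 was called for 2 of the 33, beside 0.497% of all genes, and each came directly after one of the vegetative storage protein rows in ID order.

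GLYMA_08G200200, the row after GLYMA_08G200100, had 254, 223 and 246 CPM in WD+HS flowers, 86.5, 79.5 and 93.0 CPM in HS flowers, 150, 123 and 119 CPM in WD flowers, and 133, 116 and 126 CPM in CT flowers. HS lay below CT and WD+HS above all others, without overlap. Its log2 fold change was -0.53 for HS against CT (standard error 0.09, adjusted p = 0.000145), 0.95 for WD+HS against CT (0.09, adjusted p = 8.76e-08) and 0.06 for WD against CT (0.09, adjusted p = 0.828), all by edgeR. The interaction was 1.42 (standard error 0.13, adjusted p = 1.82e-05). This order of treatments, HS lowest and WD+HS highest, is that of GLYMA_07G014500 and not that of the adjacent GLYMA_08G200100.

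GLYMA_07G014600, the row after GLYMA_07G014500, had 132, 115 and 116 CPM in WD+HS flowers, 71.4, 84.6 and 87.2 CPM in HS flowers, 137, 131 and 109 CPM in WD flowers, and 150, 138 and 191 CPM in CT flowers. Against CT its log2 difference in edgeR was -0.98 for HS (standard error 0.11, adjusted p = 9.56e-07), and that for WD+HS was -0.40 (0.11, adjusted p = 0.0068). The WD+HS call was lost without CT replicate 3, where the value was -0.27. Between the heat treatments it was higher by 0.58 under WD+HS (0.11, adjusted p = 0.00151), and the interaction was 0.92 (0.16, adjusted p = 0.00174). With both limma fits on FPKM these 2 calls were lost (0.50 in each fit, and 0.74 and 0.75), as was that for WD+HS against CT (-0.40 and -0.41). On the other side of the storage protein rows, GLYMA_08G200000 averaged 310 ± 45.9 CPM under WD+HS, 317 ± 38.0 under HS, 876 ± 60.2 under WD and 1042.2 ± 93.5 under CT (SD, n = 3 each), and GLYMA_07G014400 averaged 62.0 ± 3.42 CPM under WD+HS, 53.2 ± 4.57 under HS, 82.2 ± 0.808 under WD and 81.0 ± 5.20 under CT. Both fell under HS against CT, by 1.72 and 0.61 on the log2 scale (adjusted p = 1.21e-10 and 8.73e-06 in edgeR), and their interactions did not pass the threshold (adjusted p = 0.57 and 0.501). Whether reads were shared between neighbouring rows was not tested.

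**Figure D5:**
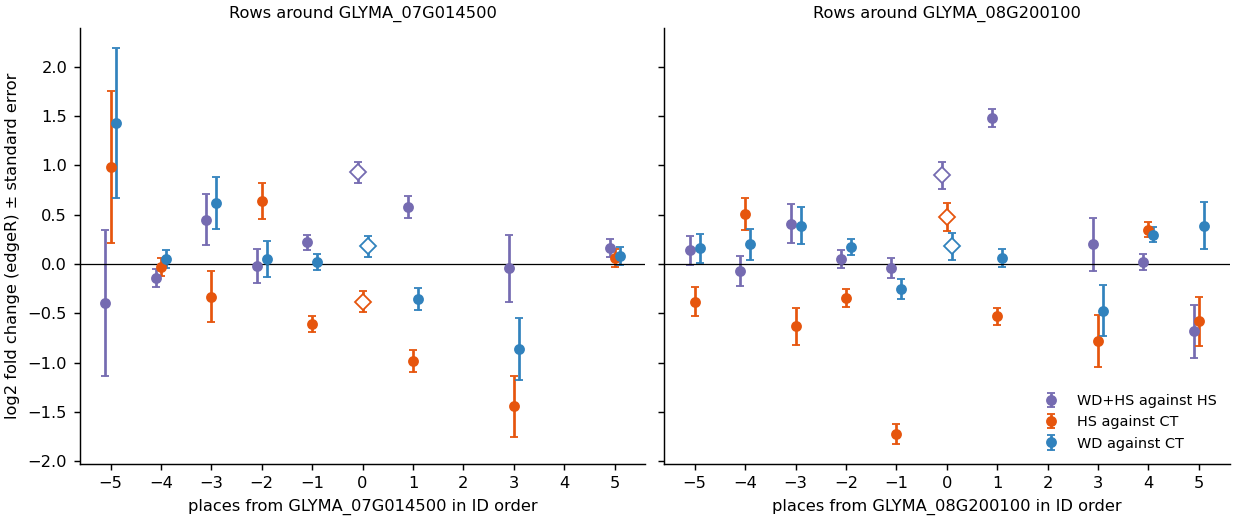
Log2 fold change (y axis, edgeR, error bars are the standard error) of the tested rows within 5 places (x axis, places in ID order) of the 2 vegetative storage protein rows, which are the open diamonds at 0, in 3 comparisons shown by colour. The row at place 1 in both panels is higher for WD+HS against HS (0.58 on the left, 1.48 on the right) and lower for HS against CT (-0.98 and -0.53).

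Next to the chromosome 13 lipoxygenase rows in ID order stood abundant transcripts. GLYMA_13G347700, the next ID, had 3985.8, 3651.0 and 3527.0 CPM in WD+HS flowers, 2530.3, 2759.4 and 2463.8 CPM in HS flowers, 2341.3, 2138.2 and 2056.0 CPM in WD flowers, and 1688.1, 1767.2 and 1802.4 CPM in CT flowers. The 4 treatments did not overlap, in the same order as for GLYMA_15G026500. Its log2 fold change was 1.09 for WD+HS against CT (standard error 0.07, adjusted p = 1.88e-10), 0.56 for HS against CT (0.07, adjusted p = 2.04e-06) and 0.31 for WD against CT (0.07, adjusted p = 0.018), by edgeR. The WD call was lost without CT replicate 1 or CT replicate 2, with both FPKM fits and with only the libraries compared (0.29 to 0.40). GLYMA_13G347800 averaged 2606.8 ± 237 CPM under WD+HS, 1927.6 ± 28.5 under HS, 2288.7 ± 277 under WD and 1964.2 ± 65.9 under CT (SD, n = 3 each). It rose in WD+HS against CT by 0.41 (0.08, adjusted p = 0.000305 in edgeR) and in WD+HS against HS by 0.44 (0.08, adjusted p = 0.000677), and its values for HS against CT and WD against CT were -0.03 and 0.22. The WD+HS against HS call was lost with both FPKM fits (0.37 in each). No product is given for these IDs in the sources used here.

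Of the other neighbours averaging 5 CPM or more, GLYMA_07G014300, GLYMA_08G199700, GLYMA_08G200500 and GLYMA_13G348100 rose in HS against CT, by log2 fold changes of 0.64, 0.51, 0.35 and 0.25. The call of GLYMA_07G014300 was lost without CT replicate 2 (0.45). That of GLYMA_08G199700 was lost with both limma fits on FPKM (0.35 and 0.39) and without any one of CT replicates 1 and 2 and HS replicates 2 and 3 (0.34 to 0.48), and that of GLYMA_13G348100 with upper-quartile scaling (0.23) and without any one of CT replicates 1 and 2 and HS replicates 1 and 3 (0.20 to 0.26). GLYMA_15G027000, GLYMA_08G199800, GLYMA_15G026100, GLYMA_13G347900 and GLYMA_08G199900 fell, with -0.88, -0.63, -0.38, -0.35 and -0.34. Of these, the call of GLYMA_08G199800 was lost without CT replicate 2, HS replicate 1 or HS replicate 2 (-0.60 to -0.50), and that of GLYMA_13G347900 with both FPKM fits (-0.21 and -0.23) and without CT replicate 3 (-0.22). GLYMA_08G200500 was also called in WD against CT, with 0.30 (standard error 0.08, adjusted p = 0.0489 in edgeR), a call that was lost with upper-quartile scaling, with library size without factors, with TMM without the 8 rows, with the replicate block, with both FPKM fits, with only the libraries compared, and on leaving out any single library other than WD replicate 1 or HS replicate 1. GLYMA_07G014100, GLYMA_07G015000, GLYMA_08G199600, GLYMA_13G347000, GLYMA_13G347100, GLYMA_13G347400, GLYMA_15G025800, GLYMA_15G025900, GLYMA_15G026600 and GLYMA_04G106400 did not pass the threshold in HS against CT.

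Genes whose profiles over the 12 libraries were most like those of the 8 rows were taken from 25982 other genes averaging 5 CPM or more. Correlations are of log2(CPM + 1) and describe libraries that share treatments, and they carry no test. For the mean of the storage protein rows the 3 closest were GLYMA_16G145300 (Pearson r 0.978), GLYMA_07G049900 (0.944) and GLYMA_19G208600 (0.941). GLYMA_16G145300 had 121, 109 and 111 CPM under WD+HS, 63.1, 86.9 and 79.7 under HS, 85.9, 66.3 and 77.0 under WD, and 67.3, 66.6 and 75.2 under CT. Like the storage protein rows, it had HS replicate 1 as the lowest of HS and WD replicate 1 as the highest of WD. The choice by correlation over the same libraries favours such a match, so it adds nothing further. For the chromosome 15 rows the closest were GLYMA_19G138000 (0.966), GLYMA_04G141000 (0.965) and GLYMA_05G091200 (0.955). For GLYMA_04G105900 they were GLYMA_17G027900 (0.922), described in the study's lists as a MATE efflux family protein, GLYMA_06G109000 (0.906) and GLYMA_19G105900 (0.888). GLYMA_17G027900 had 20.3, 22.8 and 17.8 CPM under WD+HS, 18.0, 20.8 and 19.5 under HS, 27.6, 41.1 and 38.7 under WD, and 23.8, 22.4 and 23.8 under CT. WD replicate 1 was the lowest of WD, as for GLYMA_04G105900, a match that the choice by correlation favours. Its Spearman correlation with GLYMA_04G105900 was 0.629. The chromosome 13 profile rests on 30 reads in all, and its closest genes were GLYMA_11G181700, GLYMA_05G175700 and GLYMA_13G132400 (0.824 to 0.856).

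Among the members, GLYMA_08G200100 and GLYMA_15G026500 had the highest correlation over the 12 libraries (Pearson r 0.89), above that of the 2 storage protein rows with each other (0.64). The 2 abundant chromosome 15 rows had 0.84, and GLYMA_04G105900 had between -0.34 and 0.04 with the abundant rows. HS replicate 1 was the lowest HS library for all 4 abundant rows, and HS replicate 2 the highest. CT replicate 1 was the lowest CT library for all 4, and CT replicate 3 the highest, while WD+HS replicate 2 was the lowest of its group for all 4. The highest WD+HS library was replicate 1 for 3 of these rows and replicate 3 for GLYMA_08G200100. Under WD, replicate 1 was the highest for all 4, while the lowest was replicate 2 for both storage protein rows and replicate 3 for both lipoxygenase rows.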

How the data were processed

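RNA from closed flowers was sequenced in 12 libraries, 3 in each of 4 treatments, which were assigned by the labels. The authors trimmed the reads and aligned them with HISAT2 2.2.1, and deposited raw counts of reads per gene, whose counting program is not given in the sources used here. The authors made the deposited FPKM values with Cufflinks. Columns of the authors' own comparisons were not used. Per-library precision was set by 14049107 to 22415845 counted reads.

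The quasi-likelihood test of edgeR 4.0.16 (R 4.3.3) was run on the counts in 1 fit of 4 groups, with TMM factors, the filterByExpr filter at a minimum count of 10 and no replicate block. Benjamini-Hochberg adjustment covered the 38410 genes tested, with calls at an adjusted p-value under 0.05. Standard errors were taken as the size of the log2 fold change over the square root of F. In simulated data of WD+HS against CT, 181 of 200 genes changed by 1.5 on the log2 scale were called among 37854 genes tested, with 11 unchanged genes. All 200 were raised, whereas in the data 36.8% of genes were called in this comparison, in both directions. The simulation therefore checks that the fit runs as intended and does not give its recovery or error in these data. Replicate pairs differed 3.52 to 12.1 times more than counting error, and each of the 12 count columns was closest to its own FPKM column. Replicates are pools of flowers, so p-values measure the spread between pools.

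The 8 rows and all lists were chosen with earlier results of these data known. Named were the 8 rows, the 3 genes most like each of 4 profiles with a mean of at least 5 CPM, the lipoxygenases of the study's lists, and rows within 5 ID places with a mean of at least 5 CPM. Lists fixed by product name (jasmonate synthesis and signalling, acid phosphatases, organ markers, heat shock chaperones) could not be built, because 0 of 55897 IDs matched the reference gene table, and 5 lipoxygenases described in the study's lists were used in their place. Alternatives were DESeq2 1.42.0, other scalings and filters, a replicate block, limma 3.58.1 on log2 of the deposited FPKM plus 1 or 0.1, only the libraries compared, and each library left out.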

Additional observations from a re-analysis of the deposited data

Results flagged for a closer look

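The effect of water deficit differed between day temperatures for 2 rows next to the storage protein rows, by the interaction term of the edgeR fit of all genes. For GLYMA_08G200200 the effect of WD at 38°C minus that at 28°C was 1.42 on the log2 scale (standard error 0.13, adjusted p = 1.82e-05), and it stayed past the threshold in all 21 alternatives that gave a value, with 1.36 to 1.55 when 1 library was left out. For GLYMA_07G014600 it was 0.92 (standard error 0.16, adjusted p = 0.00174), and it was between 0.77 and 1.03 when 1 library was left out. With limma-trend on log2(FPKM + 1) it was 0.74 and no longer past the threshold. WD+HS was above HS in all libraries of both rows, while WD overlapped CT for GLYMA_08G200200 and lay below it for GLYMA_07G014600.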

How the results depend on the processing

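Of the values given for single genes, 0 called ones changed sign under any alternative. The number of genes called in WD against CT was 622, and was 1014 with DESeq2, 1016 with no filter beyond 1 count, 229 with limma-trend on log2(FPKM + 1), 235 on log2(FPKM + 0.1), and 224 with only the libraries compared, and leaving out 1 library gave 266 to 1240 (1240 without WD replicate 1, 291 and 266 without CT replicates 1 and 2, 366 without WD replicate 3). For the interaction, 1132 genes were called, and 605 and 701 with the 2 FPKM fits. Of the 8 rows, the count called in WD against CT was 1, and 2 with DESeq2 and with no filter, 0 with at least 10 counts in every library, which drops GLYMA_04G105900, and 1 to 2 when 1 library was left out. In HS against CT it was 3 (2 higher and 1 lower), 1 with DESeq2 and 2 with both FPKM fits, all of these higher. The call of GLYMA_07G014500 as lower was thus lost with DESeq2 and with both FPKM fits, and 1 of the 2 higher calls was also lost with DESeq2. For the interaction it was 2 (1 above 0 and 1 below). With at least 10 counts in every library it was 1, above 0, and with both FPKM fits it was 1, below 0. The interaction call of GLYMA_07G014500, above 0, was thus lost with both FPKM fits.

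Of the 5 lipoxygenases of the study's lists, the count called in WD against CT was 3, and 1 with both FPKM fits and with only the libraries compared, and 1 to 3 when 1 library was left out. For WD+HS against HS it was 4, and 0 with both FPKM fits and 2 to 4 when 1 library was left out, and in WD+HS against WD it was 5, and 3 with both FPKM fits. Of the neighbouring rows, the count called in WD against CT was 2. It was 1 with upper-quartile factors, with library size without factors, with TMM without the 8 rows, with the replicate block and with log2(FPKM + 0.1), 0 with log2(FPKM + 1) and with only the libraries compared, and 0 to 3 when 1 library was left out. In HS against CT it was 17, and 11 to 18 when 1 library was left out, with 11 without CT replicate 2. In WD+HS against HS it was 4, and for the interaction 2, and the FPKM fits gave 2 and 1.

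The FPKM fits also moved the share of calls that were higher, to 72.1% (plus 1) and 75.3% (plus 0.1) beside 57.9% in WD against CT, 61.8% and 61.9% beside 49.8% in HS against CT, 19.3% and 18.5% beside 35.0% in WD+HS against HS, 34.3% and 34.0% beside 45.5% in WD+HS against WD, and 6.61% and 4.99% beside 16.9% for the interaction, whose median over all genes was -0.12 and -0.14. The cause was not tested. The replicate block called 578 genes in WD against CT and 1036 for the interaction. The deviations of same-numbered libraries correlated at -0.23 to 0.14 in 18 pairs, with 2 over 0.1, so the numbers were not taken to pair the samples. Without a reference annotation, reads shared by related genes limit the values of single rows, and depth limits those of the chromosome 13 rows and GLYMA_15G026300.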
